A study of Mus musculus with 37 samples.

Results

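Mammary glands of nulliparous FVB mice in oestrus (P0) were compared between PTP1B knockout (KO) and PTP1B wild type (WT) females across all measured genes. The 8 arrays, 4 KO and 4 WT, were chosen by their labels from a series of 37 arrays that also covers pregnancy days 3, 7, 10 and 15 (P3 to P15). The KO line carries PTP1B-/- in the whole body and had been crossed to FVB for 7 generations or more, and the WT glands are PTP1B+/+ on the same labelled background. Oestrus was read from a vaginal plug following a night with a male, the females of the study were mated at the age of 12 weeks, and neither genotype received a treatment. Each array measured total RNA of a whole gland, which holds epithelium, fat, stroma, vessels and immune cells, so fewer cells of a type and less RNA per cell cannot be told apart. The labels do not tell whether the replicates are different animals, or whether KO and WT were littermates, so p-values measure only the spread between these arrays, which may be technical.

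PTP1B, encoded by Ptpn1, is a tyrosine phosphatase on the endoplasmic reticulum that removes phosphate from the insulin receptor and from JAK2, the kinase used by the leptin, growth hormone and prolactin receptors. It also acts on other receptor tyrosine kinases, such as those for EGF and PDGF. In the gland at oestrus, before pregnancy, ducts lie in a large fat pad, and oestrogen, progesterone, prolactin and EGF family ligands together set how far the ducts branch.

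Values are log2 intensities of 1 probe set per gene, and 16865 genes were tested. All 37 arrays were fitted in limma with a mean for each of 10 groups, so that they share an estimate of the spread. A gene was called, as risen or fallen in KO, where its p-value, adjusted by Benjamini-Hochberg over all tested genes, was below 0.05. Differences are KO minus WT on the log2 scale ± SE, with n = 4 arrays in each genotype unless stated. Array medians at P0 lay between 6.52 and 6.6, and values from different genes are not compared with each other. The P0 arrays carried the markers of a mammary gland, with the luminal keratin Krt8 at 11.72 to 12.47 in KO and 11.17 to 12.49 in WT and the adipocyte hormone Adipoq at 12.35 to 12.55 in KO and 12.33 to 12.66 in WT.

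A pair of WT arrays stood apart. WT replicate 4 held skeletal muscle transcripts: the score of 22 muscle markers, the average over the markers of the log2 value minus the gene's own mean across the 37 arrays, was 4.66 there, against -0.42 to -0.29 in KO and -0.21 to 0.26 in the other WT arrays. Ckm, the muscle creatine kinase, read 12.24 in that array, against 6.27 to 6.47 in KO arrays and 6.72 to 7.4 in the other WT arrays. WT replicate 2 had the highest pan-epithelial score of the 8 arrays, 0.43, where the KO arrays had -0.28, 0.4, 0.18 and 0.27 and the other WT arrays -0.81, -0.49 and -0.45. Its brown adipocyte score was -1.11, against -0.11 to 0.5 in KO and 1.1 to 1.91 in the other WT arrays. Both arrays were kept in the fit reported.

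Ptpn1 itself was low in every KO gland, which checks the labels of these arrays. It read 5.75, 5.71, 6.49 and 5.55 in KO replicates 1 to 4, against 8.7, 8.75, 9.06 and 8.61 in WT replicates 1 to 4. KO and WT arrays were far apart, and the difference was -2.91 ± 0.40 (adjusted p = 2.41e-04), a level 7.5-fold lower in KO. It was -2.96 without WT replicate 4 (adjusted p = 0.00119). The shared spread includes the array labelled KO P15 replicate 3, at 8.68, which goes against its label, and with the P0 arrays alone the SE was 0.20.

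At P0 more genes were called higher than lower in KO glands, although over all tested genes 8122 differences lay above 0 and 8743 below. Of the 16865 genes 286 were called (1.70%), 215 of them higher in KO (1.27%) and 71 lower (0.421%), and 3504 had an unadjusted p below 0.05. The changes were mostly modest: 35 of the 286 exceeded 1 on the log2 scale, 32 higher and 3 lower. In 212 of the 286 the KO and WT arrays did not overlap, beside 1356 non-overlapping genes among all tested (8.04%), 544 of them higher in KO (3.23%) and 812 lower (4.81%). The risen genes named below encode cornified envelope proteins, a hyaluronan synthase, matrix proteins, zinc finger transcription factors and ERBB ligands, and the fallen ones a secreted protease inhibitor, a pericyte proteoglycan and a Notch ligand. The median difference over all tested genes was -0.01. Centring each array on its median moved it to 0.03 and gave 404 genes higher and 35 lower.

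The count depended on which arrays were in the fit. Without WT replicate 4 it was 69 (0.409%), 57 higher (0.338%) and 12 lower (0.0712%), and 66 of these were among the 286. Counts of list members called below are to be read beside these shares, or beside 1.27% higher and 0.421% lower with all arrays. Leaving out a single other P0 array gave 1811 (WT replicate 2; 10.7%, of which 1180 or 7.00% higher and 631 or 3.74% lower), 81 (WT replicate 1), 91 (KO replicate 2), 94 (KO replicate 3), 238 (WT replicate 3), 237 (KO replicate 4) or 372 (KO replicate 1). The 8 P0 arrays fitted alone gave 2 genes, Ptpn1 and Tnfaip6, with 2188 at an unadjusted p below 0.05, so the other calls need the spread estimated over all stages. The median SD over genes was 0.169 in WT P0, the largest of the 10 groups, and 0.138 in KO P0. For some genes the shared spread thus gives a smaller SE than the P0 arrays do. In the series 7 arrays, WT P0 replicate 4 among them, were in doubt for lymphocyte or muscle transcripts or for Ptpn1, and without these 7 the count was 104, with 79 shared.

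**Figure D1:**
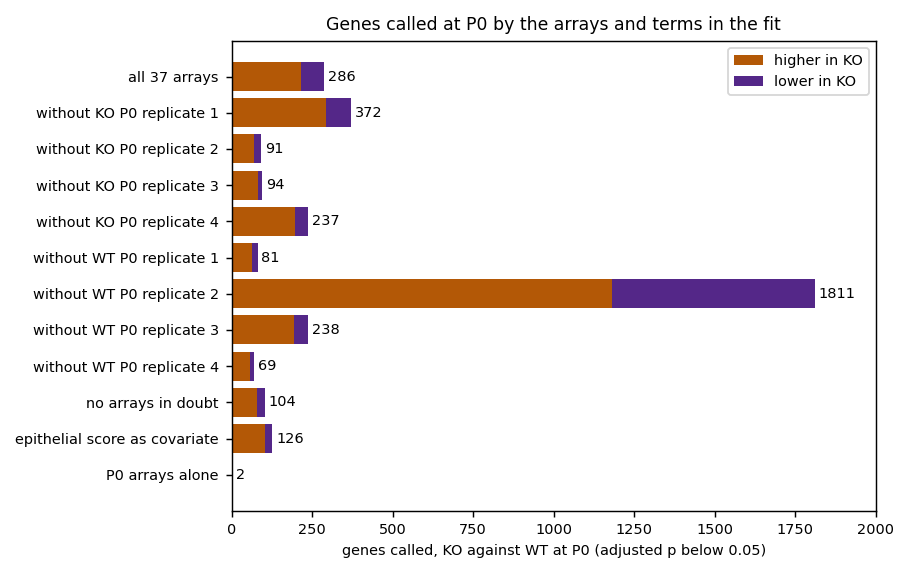
Genes called between KO and WT glands at P0 (adjusted p below 0.05), as bars stacked by direction, for the fit of all 37 arrays and for fits that leave out arrays or add a term. The count was 286 with all arrays, 1811 without WT replicate 2, 69 without WT replicate 4 and 2 with the P0 arrays alone.

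Genes of the cornified envelope, the cross-linked protein shell of squamous epithelia such as skin and the nipple duct, gave several of the larger rises. Of 17 tested members of the squamous list 5 rose and 0 fell, beside 1.27% and 0.421% of all tested genes. Of the 5, 4 were envelope genes (Sprr1a, Sprr2f, Tgm1 and Ivl) and the other was the thioesterase gene Them5. Sprr2f passed the filter on dim genes only through KO arrays. The median difference of the list was -0.03, with 7 members above 0 and 10 below. Without WT replicate 4, 4 rose and the median was 0.0. Other products of squamous cells, Lor, Krt10, Krt13, Sbsn and Sprr1b, were not called and differed by -0.19 to 0.09.

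Sprr1a, a small proline-rich precursor of the envelope, read 9.42, 9.46, 10.19 and 8.06 in KO arrays, against 7.31, 8.15, 7.56 and 7.32 in WT arrays. KO replicates 1 to 3 lay above all WT arrays, and KO replicate 4 lay just below WT replicate 2. The difference was 1.70 ± 0.28 (adjusted p = 0.00122), while limma on the P0 arrays alone gave an SE of 0.41 (adjusted p = 0.301). Sprr2f, of the same family and known in the mouse uterus as an oestrogen-induced gene, read 5.42, 5.5, 6.1 and 4.2 in KO arrays, against 3.7, 3.81, 4.06 and 3.94 in WT arrays. All WT arrays and KO replicate 4 were below 4.96, the level that a gene had to exceed in 3 arrays to be tested, and of the 37 arrays KO replicates 1 to 3 were the 3 above it. Sprr2f thus entered the test through the group where it is high, and its difference of 1.43 is given as a description. In a fit of all 19937 genes with no such filter its adjusted p was 2.65e-04, with the WT values still at the dim end. Among all tested genes 38 entered through KO P0 arrays alone, 3 of them called (Sprr2f, Epgn and Grm8). Sprr genes are near-identical copies in a cluster, and the array may not tell them apart, though Sprr1b (-0.19) and Sprr2d (-0.03) were not called.

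Tgm1, the transglutaminase that cross-links envelope proteins, read 8.51, 9.37, 8.46 and 8.95 in KO arrays, against 7.08, 8.36, 7.67 and 7.4 in WT arrays. Every KO array was above every WT array, with the highest WT value again in WT replicate 2, and the difference was 1.19 ± 0.23 (adjusted p = 0.00824). Them5, a mitochondrial acyl-CoA thioesterase, rose by 1.85 ± 0.36 (adjusted p = 0.00834). It read 7.11, 7.17, 8.65 and 9.06 in KO arrays, against 5.68, 6.36, 6.11 and 6.43 in WT arrays, so KO replicates 3 and 4 set much of the size. Ivl, involucrin of the envelope, rose by 0.69 (adjusted p = 0.0294), carried by KO replicates 1 and 2 at 6.05 and 6.13, where KO replicates 3 and 4 read 5.26 and 4.88 and the WT arrays 4.79 to 5.05, and it was called in 3 of the 8 fits that leave out 1 P0 array. Elovl4, which makes the very long fatty acids of barrier lipids, rose by 1.23 ± 0.23 (adjusted p = 0.00493), with KO arrays at 7.44 to 8.83 and WT arrays at 6.56 to 7.14. With the pan-epithelial score as a covariate the difference of Them5 was 1.53 (adjusted p = 0.0575) and that of Tgm1 0.81 (adjusted p = 0.0588), both no longer called, while Sprr1a was (1.57, adjusted p = 0.0128).

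**Figure D2:**
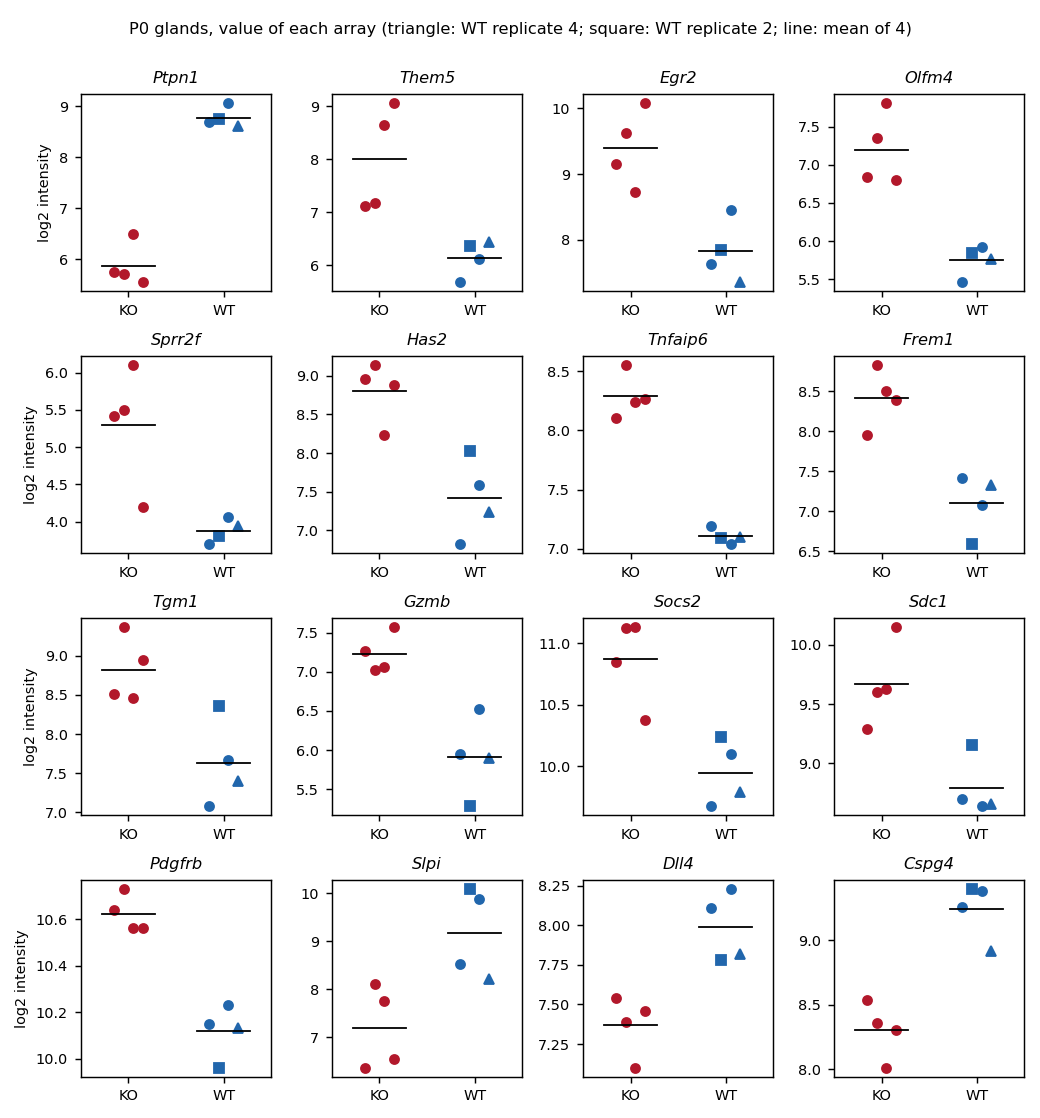
Log2 intensity of each P0 array for 16 genes, KO left and WT right in every panel, with a line at the mean of 4 arrays, a triangle for WT replicate 4 and a square for WT replicate 2. Ptpn1 lies at 5.55 to 6.49 in KO and 8.61 to 9.06 in WT, Tnfaip6 at 8.1 to 8.55 in KO and 7.04 to 7.19 in WT, and Slpi at 6.36 to 8.1 in KO and 8.21 to 10.09 in WT.

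Promoters of 3 risen genes, Tnfaip6, Gzmb and Sprr1a, are shown as examples that hold the letters TGANTCA, the site read by AP-1, the FOS and JUN factors that act downstream of growth factor receptors. They were picked for these letters: of the 15 largest rises and Sprr1a, 13 had a promoter in the table, and 5 of these held the letters while 8 did not. Each window runs from 250 bases before to 50 bases after the RefSeq start of the gene (build GRCm38.p6), 5′ to 3′ on the gene's strand, with the match in capitals. For Tnfaip6 it lies at chr2:52037863-52038162 on the plus strand with the match 142 bases before the start, for Gzmb at chr14:56262285-56262584 on the minus strand with the match 58 bases before it, and for Sprr1a at chr3:92485832-92486131 on the minus strand with matches 146 and 116 bases before it.
Tnfaip6: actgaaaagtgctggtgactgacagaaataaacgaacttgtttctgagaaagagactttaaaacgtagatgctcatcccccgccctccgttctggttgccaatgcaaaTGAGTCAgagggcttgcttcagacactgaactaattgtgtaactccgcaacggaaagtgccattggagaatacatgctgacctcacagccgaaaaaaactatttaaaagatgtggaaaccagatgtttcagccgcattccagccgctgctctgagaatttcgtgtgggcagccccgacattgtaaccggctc
Gzmb: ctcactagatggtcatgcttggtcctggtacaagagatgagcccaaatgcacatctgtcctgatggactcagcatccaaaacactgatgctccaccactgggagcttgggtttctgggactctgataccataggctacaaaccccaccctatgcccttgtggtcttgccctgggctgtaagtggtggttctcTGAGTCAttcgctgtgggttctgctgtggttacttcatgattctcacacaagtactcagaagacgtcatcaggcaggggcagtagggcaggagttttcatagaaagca
Sprr1a: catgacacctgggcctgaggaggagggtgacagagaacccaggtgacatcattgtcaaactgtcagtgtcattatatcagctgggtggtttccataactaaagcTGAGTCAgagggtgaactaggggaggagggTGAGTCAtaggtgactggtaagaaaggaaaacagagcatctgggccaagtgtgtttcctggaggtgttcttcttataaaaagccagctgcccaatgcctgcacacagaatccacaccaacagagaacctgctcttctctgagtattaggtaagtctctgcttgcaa
Among risen genes with a promoter in the table, 21 of 160 (13.1%) held these letters on either strand, against 4 of 58 fallen genes (6.9%) and 932 of all 13255 tested genes with a promoter (7.03%). The STAT letters TTCNNNGAA were found in 12.5% of risen, 6.9% of fallen and 8.4% of all tested genes. The cyclic AMP element TGACGTCA was found in 4.38% of risen, 1.72% of fallen and 3.06% of all tested genes. The EGR letters GCGNGGGCG were found in 14.4% of risen, 6.9% of fallen and 10.7% of all tested genes, and the CArG box in 2.5%, 1.72% and 1.6%. The full oestrogen response element was found in 0 of 160 risen and 0 of 58 fallen genes and in 4 of all 13255. These shares describe letters in a window, and binding was not measured.

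Some genes that build and remodel the matrix rose in KO glands. Of 35 tested members 5 rose and 0 fell, beside 1.27% and 0.421% of all tested genes. Of the 35, 31 lay above 0, and the median difference was 0.25. Without WT replicate 4, 4 rose and the median was 0.2. Without WT replicate 2, 11 rose, beside 7.00% of all genes in that fit, and the median was 0.26. The fibroblast list, which marks the cells that make much of this matrix, had 1 of 16 members risen and a median of 0.26, and its score was 0.03 to 0.64 in KO and -0.25 to 0.42 in WT. The part of fibroblast content in these rises was not tested.

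Has2, the synthase of hyaluronan, the large sugar polymer of soft stroma, read 8.96, 9.14, 8.24 and 8.88 in KO arrays, against 6.82, 8.02, 7.59 and 7.23 in WT arrays. All KO arrays lay above all WT arrays, and the difference was 1.39 ± 0.22 (adjusted p = 0.00122). Tnfaip6, which binds hyaluronan and loads it with protein chains, read 8.1, 8.55, 8.24 and 8.26 in KO arrays, against 7.19, 7.09, 7.04 and 7.1 in WT arrays. Both groups were tight and far apart, with a difference of 1.18 ± 0.19 (adjusted p = 0.00137). It was the 1 gene besides Ptpn1 that was called with the P0 arrays alone (adjusted p = 0.012).

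Frem1, a protein of the epithelial basement membrane, read 7.96, 8.83, 8.5 and 8.39 in KO arrays, against 7.42, 6.59, 7.08 and 7.33 in WT arrays. KO and WT arrays did not overlap, and the difference was 1.31 ± 0.20 (adjusted p = 8.25e-04). Mmp14, a membrane-bound collagenase, rose by 0.67 ± 0.14 (adjusted p = 0.00974), with KO arrays at 10.22 to 10.8 and WT arrays at 9.66 to 10.05. Adamts18, a secreted protease known as a progesterone target in mouse mammary epithelium, rose by 0.87 ± 0.18 (adjusted p = 0.00992), with KO arrays at 7.14 to 8.13 and WT arrays at 6.5 to 6.95. Adamts4, a protease of versican, rose by 0.90 (adjusted p = 0.0276), and here WT replicate 2, at 8.14, lay among the KO arrays at 7.92 to 8.42, and 2 of the 8 fits that leave out 1 P0 array called it. Versican itself, Vcan, read 10.25 to 10.7 in KO and 9.11 to 10.03 in WT and was not called (0.96, adjusted p = 0.0581). Without KO replicate 2 the difference was 0.56 for Mmp14 (adjusted p = 0.0544) and 0.71 for Adamts18 (adjusted p = 0.0553), and without WT replicate 1 it was 0.77 for Adamts18 (adjusted p = 0.0539). With the pan-epithelial covariate Mmp14 (0.56, adjusted p = 0.0625) and Adamts18 (0.67, adjusted p = 0.0755) were not called. Collagens had 0 of 20 called by limma and 4 at an unadjusted p below 0.05, beside 3504 of all 16865 tested genes. Their median was 0.14, or 0.05 without WT replicate 4. Without WT replicate 2 it was 0.25 with 2 called higher, beside 7.00% of all genes in that fit.

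Alx4 and Pdgfrb rose with smaller and tighter differences. Alx4, a homeobox factor of the mammary stroma, read 7.7, 8.05, 7.75 and 8.18 in KO arrays, against 7.35, 7.02, 7.24 and 7.08 in WT arrays. Here the lowest KO array exceeded the highest WT array, and the difference was 0.75 ± 0.11 (adjusted p = 3.01e-04). Pdgfrb, the PDGF receptor of fibroblasts and pericytes and a substrate of PTP1B in mouse cells, read 10.64, 10.73, 10.56 and 10.56 in KO arrays, against 10.15, 9.96, 10.23 and 10.13 in WT arrays. Every KO array was above every WT array, by a difference of 0.50 ± 0.10 (adjusted p = 0.00838).

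Sh3pxd2b, Pcdh18 and Crispld1, named for the size of their rise or their test against later stages, belong to none of the lists. Sh3pxd2b, a scaffold of podosomes, rose by 0.84 ± 0.12 (adjusted p = 3.01e-04), with KO arrays at 9.45 to 9.78 and WT arrays at 8.46 to 9.11. Pcdh18, a protocadherin, rose by 0.76 ± 0.15 (adjusted p = 0.00824), with KO arrays at 9.11 to 9.56 and WT arrays at 8.43 to 8.86. Crispld1, a secreted cysteine-rich protein, rose by 1.31 ± 0.23 (adjusted p = 0.0029), with KO arrays at 8.05 to 9.14 and WT arrays at 6.95 to 7.83. Alx4, Pdgfrb, Sh3pxd2b, Pcdh18 and Crispld1 each kept their call with any 1 of the 8 P0 arrays left out and with the pan-epithelial covariate. For Crispld1 the call without WT replicate 4 was part of the rule that named it as a rise.

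Among 32 regulators of duct growth, 4 rose and 1 fell, beside 1.27% and 0.421% of all tested genes, with a median of 0.17. The counts were 3 and 0 without WT replicate 4. They were 8 and 1 without WT replicate 2, beside 7.00% of all genes higher and 3.74% lower in that fit. Besides Alx4 the risen members were Snai2, a repressor found in basal cells (0.53 ± 0.12, adjusted p = 0.0175), Inhba, an activin subunit (0.53 ± 0.13, adjusted p = 0.0305), and Bmp7, a secreted bone morphogenetic protein (0.65, adjusted p = 0.0464). Hoxa5, a homeobox factor, fell (-0.58 ± 0.14, adjusted p = 0.0333). Of these, Snai2 was lost without KO replicate 2 (0.49, adjusted p = 0.0669) or WT replicate 1 (0.47, adjusted p = 0.0768), while Hoxa5 (-0.45, adjusted p = 0.153) and Bmp7 (0.6, adjusted p = 0.14) were lost without WT replicate 4 and were each called in 3 of the 8 fits that leave out 1 P0 array. Inhba was called without WT replicate 4 (adjusted p = 0.0335) but not without KO replicate 2 (0.52, adjusted p = 0.0759), KO replicate 4 (0.37, adjusted p = 0.107), WT replicate 1 (0.51, adjusted p = 0.0867) or WT replicate 3 (0.48, adjusted p = 0.0802). Of 27 members of the Wnt pathway 2 rose, the ligand Wnt2 (0.77 ± 0.21, adjusted p = 0.0464) and the receptor Fzd1 (0.50 ± 0.13, adjusted p = 0.0369), and neither was called without WT replicate 4 (adjusted p = 0.0801 and 0.138). With 1 P0 array left out, Wnt2 was called in 0 of 8 fits and Fzd1 in 2. The median of the Wnt list was 0.04.

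The prolactin receptor signals through JAK2, on which PTP1B acts, and the transcription factor STAT5. Of 16 tested members of this pathway 2, Socs2 and the phosphatase gene Ptpn2, were called higher and 0 lower. Over all tested genes the shares were 1.27% and 0.421%. The median of the list was 0.28. Without WT replicate 4 the count was 1. Without WT replicate 2 it was 6 with a median of 0.39, beside 7.00% of all genes called higher in that fit. The Ptpn2 call depends on the probe set, as given below. Socs2, a feedback inhibitor that STAT5 induces, read 10.85, 11.12, 11.13 and 10.38 in KO arrays, against 9.68, 10.24, 10.1 and 9.79 in WT arrays. KO replicate 4 was the lowest KO array and still above all WT arrays, and the difference was 0.92 ± 0.15 (adjusted p = 0.00122), with the call kept when any 1 P0 array was left out. Socs2 has 2 probe sets, of which the brighter was read, and its place in the gene was not tested. On the mean of each gene's probe sets, 49 of the 50 called genes chosen to be named kept their calls, with Ptpn2 the 1 lost. Other STAT5 feedback genes were not called, with Cish at 0.33 (adjusted p = 0.506), Socs3 at 0.23 (adjusted p = 0.579) and Socs1 at 0.11. The kinase Jak2 (0.24), Stat5a (0.18) and Stat5b (0.08) were not called either, and the receptor gene Prlr was not analysed here. With the pan-epithelial score as a covariate the median of the list was 0.04 and Socs2 stood at 0.83 (adjusted p = 0.0144).

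Insulin, leptin and IGF signalling, the other receptor systems that PTP1B acts on, had 0 of 21 members called by limma. At an unadjusted p below 0.05 there were 6, beside 3504 of all 16865 tested genes. The median was 0.10, or 0.04 without WT replicate 4. The largest difference in this list was that of the leptin receptor Lepr, at 7.03, 7.78, 7.64 and 6.14 in KO arrays, against 5.82, 5.61, 7.09 and 5.86 in WT arrays. The groups overlapped through KO replicate 4 and WT replicate 3, and the difference was 1.05 (adjusted p = 0.0686). The adaptor Grb14, which inhibits the insulin receptor, differed by -0.88 (adjusted p = 0.0565), Insr by -0.07 and Igf1r by 0.17.

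Of 14 progesterone receptor targets 2 rose and 0 fell, beside 1.27% and 0.421% of all tested genes, with a median of 0.27. Without WT replicate 4, 1 rose, and without WT replicate 2, 4 rose, beside 7.00% of all genes in that fit. The 2 risen with all arrays were Adamts18, above, and Id4, an inhibitor of helix-loop-helix factors in basal cells (1.04 ± 0.24, adjusted p = 0.0208). Id4 read 8.28 to 9.4 in KO arrays and 7.26 to 8.54 in WT arrays, with the highest WT value in WT replicate 2. Its call was lost without WT replicate 4 (1.04, adjusted p = 0.0638), WT replicate 1 (0.82, adjusted p = 0.0999), KO replicate 2 (0.92, adjusted p = 0.0782) or KO replicate 4 (0.89, adjusted p = 0.0629), and with the pan-epithelial covariate it stood at 0.60 (adjusted p = 0.138). The receptor gene Pgr differed by 0.86 (adjusted p = 0.106), but by 0.45 without WT replicate 4 (adjusted p = 0.393), the lowest WT array at 6.94, and by 1.22 without WT replicate 2 (adjusted p = 0.00597). Tnfsf11, which encodes RANKL, and Wnt4, both paracrine signals of progesterone, differed by 0.01 and -0.06. Among 15 oestrogen targets the 1 called was Sprr2f, which entered the test through KO arrays alone. Without WT replicate 2 there were 3, beside 7.00% of all genes called higher in that fit. Greb1 (0.28), Esr1 (-0.13) and Tff3 (-0.17) were not called.

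Some ligands of the ERBB receptors were among the risen signals. Of 9 tested ligands 3 were called higher, beside 1.27% of all tested genes. Of these 3, Epgn entered the test through KO arrays alone. The list had 5 ligands above 0 and 4 below, with a median of 0.17. Without WT replicate 4, 0 were called and the median was 0.21. Nrg1, neuregulin, which binds ERBB3 and ERBB4, read 6.55, 7.0, 7.45 and 7.53 in KO arrays, against 5.68, 6.18, 6.01 and 6.09 in WT arrays. Again KO and WT arrays did not overlap, and the difference was 1.14 ± 0.26 (adjusted p = 0.0221), or 1.17 without WT replicate 4 (adjusted p = 0.0568). Btc, betacellulin, rose by 0.53 ± 0.14 (adjusted p = 0.0439). Epgn, epigen, read 4.79 to 5.43 in KO arrays and 4.55 to 4.91 in WT arrays, near the filter level, and its difference of 0.49 had an adjusted p of 0.0324 in limma with no filter. Without WT replicate 4 the difference was 0.41 for Btc (adjusted p = 0.185). With 1 P0 array left out, Nrg1 was called in 4 of 8 fits, also lost without KO replicate 3 (1.03, adjusted p = 0.0864), KO replicate 4 (1.01, adjusted p = 0.0607) or WT replicate 1 (1.04, adjusted p = 0.081), while Btc was called in 2. Tgfa (-0.04), Hbegf (-0.14) and Ereg (0.29) were not called, and Areg was not analysed here.

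Of 22 receptor tyrosine kinases 2 rose, beside 1.27% of all tested genes. They were Pdgfrb, above, and Egfr (0.56 ± 0.15, adjusted p = 0.0481). The median of the list was 0.15, or 0.07 with 1 called without WT replicate 4. The Egfr difference was 0.43 without WT replicate 4 (adjusted p = 0.198), and it was called in 4 of the 8 fits that leave out 1 P0 array. Its KO arrays read 10.57 to 11.08, while WT replicates 1 and 3 read 10.65 and 10.66 and WT replicates 2 and 4 were low at 9.94 and 9.88. Erbb2 (0.19), Erbb3 (0.37), Erbb4 (0.67) and Insr (-0.07) were not called. Of 24 tyrosine phosphatases Ptpn1 fell and 2 rose, beside 1.27% of all tested genes called higher, with a median of 0.14. The count of rises was 0 without WT replicate 4 and 6 without WT replicate 2, where 7.00% of all genes were called higher. The median in that fit was 0.22. Ptpn2, the closest relative of PTP1B, differed by 0.31 ± 0.08 (adjusted p = 0.0369) on the probe set taken, but by 0.04 (adjusted p = 0.84) on the mean of its probe sets, and was not called without WT replicate 4 (0.30, adjusted p = 0.108) or in 5 of the other 7 fits that leave out 1 P0 array. Ptprj, a receptor phosphatase, read 10.37 to 10.66 in KO arrays and 10.01 to 10.33 in WT arrays (0.46 ± 0.12, adjusted p = 0.043), and 0.43 without WT replicate 4 (adjusted p = 0.136), with 3 of the 8 such fits calling it.

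Among 22 immediate early genes, switched on within minutes of a stimulus, 2 rose and 0 fell, beside 1.27% and 0.421% of all tested genes. The median was 0.11, and 1 rose without WT replicate 4. Egr2, a zinc finger factor, read 9.16, 9.63, 8.73 and 10.08 in KO arrays, against 7.63, 7.84, 8.45 and 7.35 in WT arrays. The groups did not overlap, and the difference was 1.58 ± 0.27 (adjusted p = 0.00211). Egr1, of the same family, read 8.34, 9.09, 8.5 and 9.33 in KO arrays, against 7.37, 7.99, 8.22 and 7.77 in WT arrays. Here too the groups did not overlap, with a difference of 0.97 ± 0.22 (adjusted p = 0.023), but its call was lost without WT replicate 4 (0.95, adjusted p = 0.069), WT replicate 1 (0.82, adjusted p = 0.0976), KO replicate 2 (0.88, adjusted p = 0.0782) or KO replicate 4 (0.80, adjusted p = 0.0705). Fos (0.22), Fosb (0.10), Jun (0.20), Junb (0.04), Atf3 (-0.05), Dusp1 (-0.05) and Egr3 (0.12) were not called. Egr2 is also a marker of Schwann cells, and 0 of the other 9 tested Schwann markers were called by limma. Of these, 1 had an unadjusted p below 0.05, beside 3504 of all 16865 tested genes. Mbp stood at -0.16 and Sox10 at 0.45.

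Secreted defence proteins moved in both directions: of 18 tested members 2 rose and 1 fell, beside 1.27% and 0.421% of all tested genes. The median was 0.39, and 1 rose without WT replicate 4. Olfm4, a secreted glycoprotein of mucosal epithelia and neutrophils, read 6.84, 7.36, 7.81 and 6.8 in KO arrays, against 5.46, 5.84, 5.92 and 5.76 in WT arrays. The groups did not overlap, and the difference was 1.45 ± 0.21 (adjusted p = 3.01e-04). Lyz1, a lysozyme with a near-identical copy, Lyz2, differed by 1.27 ± 0.33 (adjusted p = 0.0413), with WT replicate 2 lowest at 7.58, and by 0.95 without that array (adjusted p = 0.0565) and 1.32 without WT replicate 4 (adjusted p = 0.0934), and 2 of the 8 fits that leave out 1 P0 array called it.

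Slpi, an inhibitor of neutrophil proteases in milk and mucus, showed the steepest fall after Ptpn1. It read 6.36, 8.1, 7.75 and 6.55 in KO arrays, against 8.53, 10.09, 9.87 and 8.21 in WT arrays. In both genotypes replicates 1 and 4 were low and replicates 2 and 3 high, yet the highest KO value stayed below the lowest WT value. The difference was -1.99 ± 0.36 (adjusted p = 0.00425), and -2.31 without WT replicate 4 (adjusted p = 0.00168). Limma on the P0 arrays alone gave an SE of 0.53 (adjusted p = 0.317). Slpi lies on chromosome 2, the chromosome of Ptpn1, 62 tested genes away.

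Cytotoxic lymphocyte transcripts gave 1 call. Gzmb, a granzyme of killer cells, read 7.26, 7.02, 7.06 and 7.57 in KO arrays, against 5.95, 5.29, 6.52 and 5.9 in WT arrays. All KO arrays were above all WT arrays, and the difference was 1.31 ± 0.26 (adjusted p = 0.00834). Of 14 T and NK cell markers Gzmb was the 1 called, with a median of 0.0, and 7 lay above 0 and 7 below. The NK markers Gzma (0.73, adjusted p = 0.0606), Nkg7 (0.72) and Ncr1 (0.62) lay above 0. Some but not all T cell genes lay below, among them Cd3e (-0.13), Cd8a (-0.37) and Cd5 (-0.35). The list score was 0.48 in WT replicate 3, against -0.59, -0.76 and -0.52 in the other WT arrays and -0.32 to -0.11 in KO arrays.

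Other steep rises came from genes outside these groups. Tc2n, a protein with C2 domains, rose by 1.39 ± 0.28 (adjusted p = 0.0088), with KO arrays at 7.34 to 8.23 and WT arrays at 5.99 to 7.11. Cntn1, a neural adhesion protein, rose by 1.33 ± 0.24 (adjusted p = 0.00491), with KO arrays at 8.45 to 8.7 and WT arrays at 6.61 to 7.82. Gcnt4, which branches O-linked sugar chains, rose by 1.30 ± 0.20 (adjusted p = 8.25e-04), with KO arrays at 7.97 to 8.96 and WT arrays at 6.82 to 7.41. Sectm1a, a secreted and transmembrane protein, rose by 1.25 ± 0.21 (adjusted p = 0.00216), with KO arrays at 8.2 to 8.8 and WT arrays at 6.88 to 7.48. In each of these 4 genes the groups did not overlap, as the rule that named them asked. Each kept its call with any 1 P0 array left out, where the fit without WT replicate 4 was part of that rule. Tc2n lost its call with the pan-epithelial covariate (1.05, adjusted p = 0.0709). Sdc1, syndecan 1, is a marker of plasma cells that epithelium also makes. It read 9.29, 9.6, 9.63 and 10.15 in KO arrays, against 8.7, 9.15, 8.64 and 8.66 in WT arrays, a rise of 0.88 ± 0.17 (adjusted p = 0.00834). No other of the 10 plasma cell markers was called, and with the pan-epithelial covariate it was not called (0.63, adjusted p = 0.0625).

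Falls were fewer and mostly small. Cspg4, the NG2 proteoglycan of pericytes, read 8.54, 8.36, 8.01 and 8.3 in KO arrays, against 9.26, 9.4, 9.38 and 8.92 in WT arrays. The groups did not overlap, and the difference was -0.94 ± 0.23 (adjusted p = 0.0293), but the adjusted p was 0.0666 without KO replicate 2, 0.107 without KO replicate 3, 0.0514 without KO replicate 4, 0.0763 without WT replicate 1 and 0.0636 without WT replicate 3. Dll4, the Notch ligand of sprouting endothelium, read 7.54, 7.39, 7.1 and 7.46 in KO arrays, against 8.11, 7.78, 8.23 and 7.82 in WT arrays. All WT arrays were above all KO arrays, by a difference of -0.62 ± 0.14 (adjusted p = 0.0181), with an adjusted p of 0.0869 without KO replicate 3, 0.0687 without WT replicate 1 and 0.0578 without WT replicate 3. The endothelial list had 0 of 16 called by limma and 2 at an unadjusted p below 0.05, beside 3504 of all 16865 tested genes. Its median was -0.15, or -0.23 without WT replicate 4 and -0.08 without WT replicate 2. Hephl1, a copper ferroxidase, fell by 1.82 on the log2 scale (adjusted p = 0.0413), with KO arrays at 5.26 to 6.04 and WT arrays at 6.96 to 8.14, and was not called without WT replicate 4 (-1.83, adjusted p = 0.106), with 2 of the 8 fits that leave out 1 P0 array calling it. Ehbp1l1 (-0.41 ± 0.08, adjusted p = 0.0088), Nyx (-0.41 ± 0.08, adjusted p = 0.00834) and Slc12a5, a potassium chloride transporter (-0.29 ± 0.06, adjusted p = 0.0108), had small falls that kept their calls with any 1 P0 array left out. For these falls the call without WT replicate 4 was part of the rule that named them. Nyx has 2 probe sets, of which the brighter was read.

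Lists for cell types and cell states differed in their medians with few or no single members called. Their counts at an unadjusted p below 0.05 stand beside 3504 of all 16865 tested genes. Mitosis and replication genes had all 32 tested members above 0 and a median of 0.82, with 0 called by limma and 26 at an unadjusted p below 0.05. Their score was -0.73, -0.63, -0.21 and 0.89 in KO arrays, against -1.55, -0.19, -1.39 and -0.98 in WT arrays, so KO replicate 4 was high and WT replicate 2 lay among the KO arrays. Mki67, the proliferation antigen, read 7.94, 8.48, 8.67 and 9.7 in KO arrays, against 7.07, 8.92, 7.28 and 8.0 in WT arrays (0.88, adjusted p = 0.222). Without WT replicate 2 the median was 1.13 and 21 members were called higher (7.00% of all genes in that fit), and with the pan-epithelial covariate it was 0.27.

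Epithelial markers also moved with WT replicate 2. All 18 pan-epithelial members lay above 0, with a median of 0.47, 0 called by limma and 12 at an unadjusted p below 0.05. Without WT replicate 2 the median was 0.7 with 16 called higher, beside 7.00% of all genes in that fit. Luminal progenitor markers had a median of 0.51 and 0 of 15 called (7 called higher without WT replicate 2), hormone-sensing markers 0.14 and 0 of 12 (0.31 with 5 called higher without WT replicate 2), and myoepithelial markers 0.31 and 1 of 15, the basal factor Trp63 (0.72 ± 0.16, adjusted p = 0.02, and 0.0568 without WT replicate 4). With the pan-epithelial covariate the myoepithelial median was 0.02 and Trp63 stood at 0.35 (adjusted p = 0.089). Fat genes lay below 0, with all 11 brown adipocyte markers below 0 (median -0.74) and all 19 fatty acid synthesis genes below 0 (median -0.25). Limma called 0 in each, with 2 and 3 at an unadjusted p below 0.05, beside 3504 of all 16865 tested genes. Without WT replicate 4 the medians were -0.51 and -0.18, and with the pan-epithelial covariate they lay above 0, at 0.26 and 0.07. Without WT replicate 2 the medians were -1.26 and -0.55. In that fit 3 brown adipocyte markers and 8 fatty acid synthesis genes were called lower, beside 3.74% of all genes. White adipocyte markers had a median of -0.11 with 0 of 13 called.

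Macrophage markers had all 16 members above 0, a median of 0.54, 0 called by limma and 11 at an unadjusted p below 0.05, with scores of 0.93, 0.47, 0.59 and 0.2 in KO arrays, against 0.11, -0.48, 0.44 and -0.08 in WT arrays. Interferon-induced genes had all 18 above 0 and a median of 0.45 with 0 called by limma and 8 at an unadjusted p below 0.05, and KO replicate 1 stood highest at a score of 1.26, against 0.03 to 0.59 in the other KO arrays and -0.32 to 0.49 in WT arrays. Neutrophil and mast cell markers had all 13 above 0 (median 0.38) and B cell markers a median of -0.12, with 0 called in both. Milk and secretory genes had 0 of 21 called and a median of 0.30, or 0.61 without WT replicate 4. Without WT replicate 2 the median was 0.49 and 5 were called higher, beside 7.00% of all genes in that fit. Clock genes had 0 of 16 called and a median of 0.01, or -0.09 without WT replicate 4. Skeletal muscle markers had a median of -1.59, or -0.32 without WT replicate 4, and 0 of 22 called. With the pan-epithelial or the muscle score as a covariate 126 and 174 genes were called, and of the 50 called genes chosen to be named 25 and 38 kept their calls. Beside those given above, the pan-epithelial covariate ended the calls of Cspg4, Dll4, Nyx, Hephl1, Ptpn2, Nrg1, Btc, Ptprj, Egr1, Lyz1, Fzd1, Snai2, Inhba, Hoxa5, Snai1, Fam160b2 and Rasl12. The part of other cell types in the calls was not tested.

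**Figure D3:**
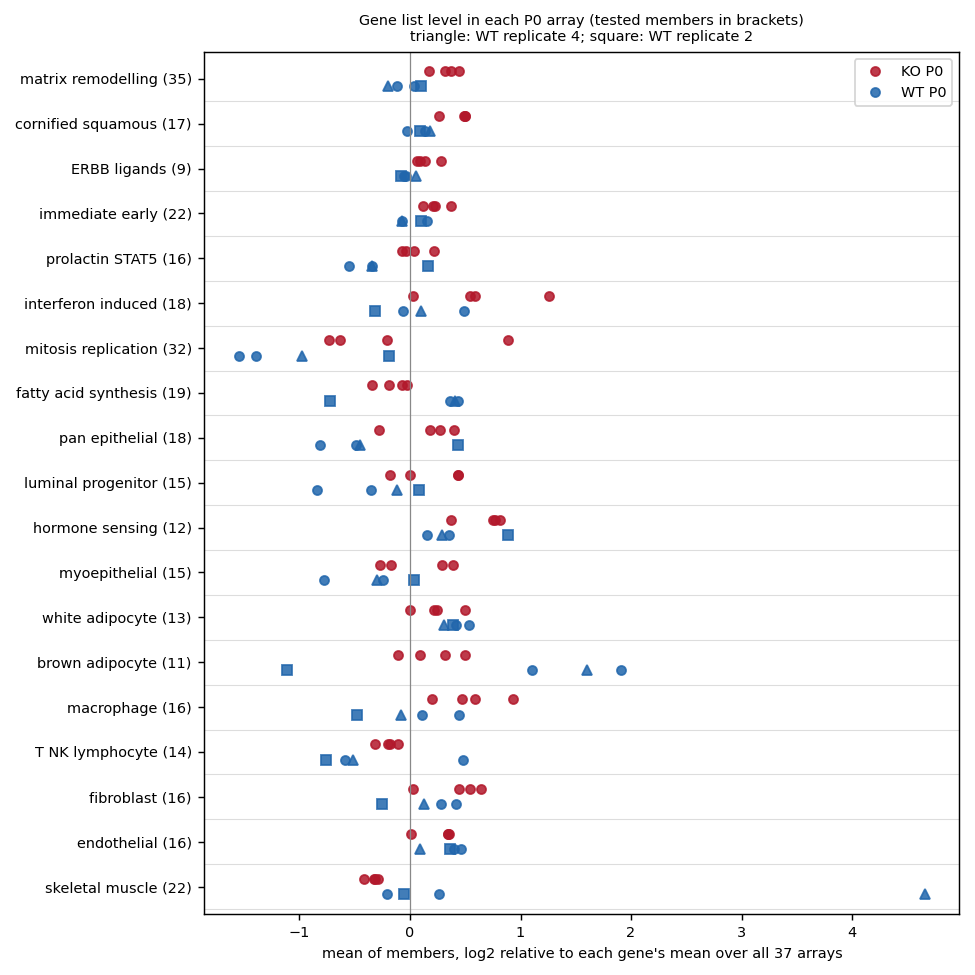
Score of 19 gene lists in each P0 array, in log2 relative to each gene's mean over all 37 arrays, with KO above WT in each line, a triangle for WT replicate 4 and a square for WT replicate 2. WT replicate 4 stands alone at 4.66 for skeletal muscle, and WT replicate 2 lies apart from the other WT arrays for pan-epithelial (0.43) and brown adipocyte (-1.11) markers.

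To ask whether the P0 differences belong to the nulliparous gland, the KO minus WT difference at P0 was tested against the mean of the 4 differences at P3, P7, P10 and P15. They differed in 1043 genes (6.18%), 779 with the P0 difference higher (4.62%) and 264 with it lower (1.57%), and 4293 had an unadjusted p below 0.05. Of the 1043 genes, 998 had opposite signs at P0 and later, beside 57.8% of all tested genes. A test of the gap between the 2 differences favours genes with opposite signs, so the 998 is no separate result. Both tests use the P0 arrays, and 245 of the genes called at P0 were also called here. Leaving out WT replicate 4 gave 477, leaving out WT replicate 2 gave 2392, and leaving out the 7 arrays in doubt gave 338. Of the 286, 200 had the opposite sign in the later mean (69.9%), beside 57.8% of all tested genes, and 14 kept the sign of their P0 difference at all 4 later stages.

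Leaving out predicted genes, the 8 smallest p-values of this contrast were those of Alx4, Frem1, Pdgfrb, Sh3pxd2b, Gcnt4, Crispld1, Pcdh18 and Has2. The P0 difference of Frem1 was 1.31 and the later mean -0.86 (difference 2.18 ± 0.23, adjusted p = 1.40e-06). In KO glands Frem1 averaged 8.42, 7.74, 8.42, 7.01 and 6.66 from P0 to P15, and in WT glands 7.1, 9.1, 8.75, 8.12 and 7.32. It was thus higher in KO at P0 and lower in KO at each later stage, with WT glands at their lowest at P0. Alx4 stood at 0.75 at P0 and -0.46 later (difference 1.21 ± 0.12, adjusted p = 9.86e-07), Pdgfrb at 0.50 and -0.53 (1.04 ± 0.11, adjusted p = 1.71e-06), and Has2 at 1.39 and -0.53 (1.92 ± 0.25, adjusted p = 4.31e-05). Egr2 (1.58 at P0, -0.67 later) and Crispld1 (1.31 at P0, -0.73 later) were likewise higher in KO at P0 and lower in KO at every later stage. In the matrix list 11 of 35 members and in the collagen list 7 of 20 passed this test with the P0 difference higher, beside 4.62% of all tested genes, and 0 passed with it lower. The medians of the matrix and collagen lists were 0.25 and 0.14 at P0 and -0.29 and -0.36 later. Fibroblast markers, some of them in these lists, did likewise, with 5 of 16 passing and medians of 0.26 at P0 and -0.35 later. Among duct growth regulators 9 of 32 passed with the P0 difference higher. The part of fibroblast content was not tested.

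Other P0 differences stood beside small ones at the later stages. Socs2 differed by 0.92 at P0 and by -0.20 to 0.11 at the later stages (difference 0.93 ± 0.17, adjusted p = 0.00111). Olfm4 differed by 1.45 at P0 and by -0.05 to 0.20 later (1.39, adjusted p = 6.17e-04). For Ptpn1 (-2.91 at P0, -2.66 later, adjusted p = 0.76), Gzmb (1.31 at P0, 0.68 later, adjusted p = 0.171) and Slpi (-1.99 at P0, -0.94 later, adjusted p = 0.113) the test did not separate P0 from later stages. Across pregnancy the Slpi difference was -2.11 (P3), -1.49 (P7), -0.42 (P10) and 0.26 (P15).

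**Figure D4:**
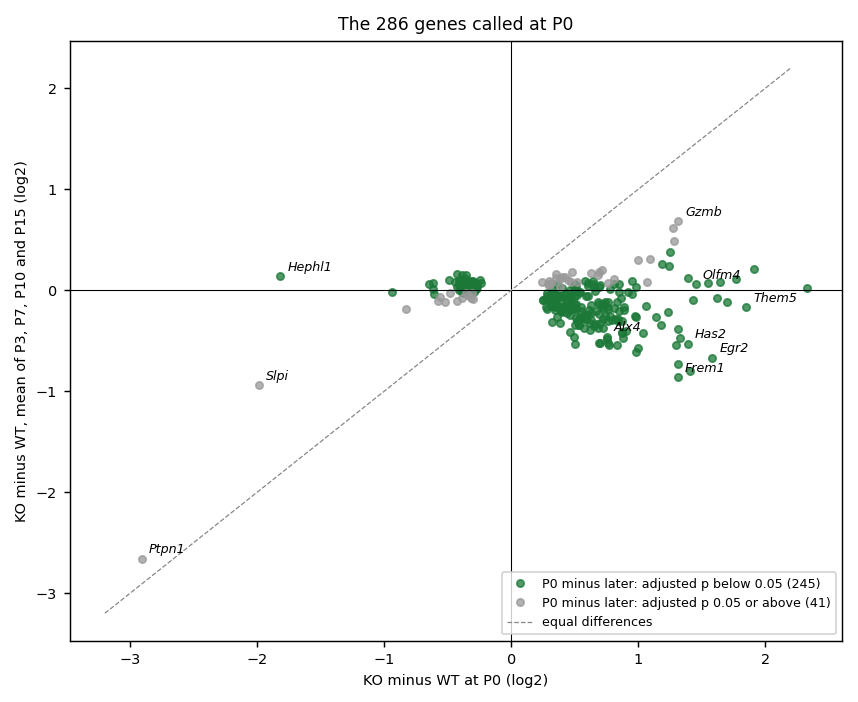
KO minus WT difference at P0 (horizontal axis, log2) against its mean over P3, P7, P10 and P15 (vertical axis, log2) for the 286 genes called at P0, in green where the test of P0 against later gave an adjusted p below 0.05 (245 genes) and grey otherwise (41). Most points lie near or below 0 on the vertical axis and off the line of equal differences, while Ptpn1 lies close to it at -2.91 and -2.66.

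**Figure D5:**
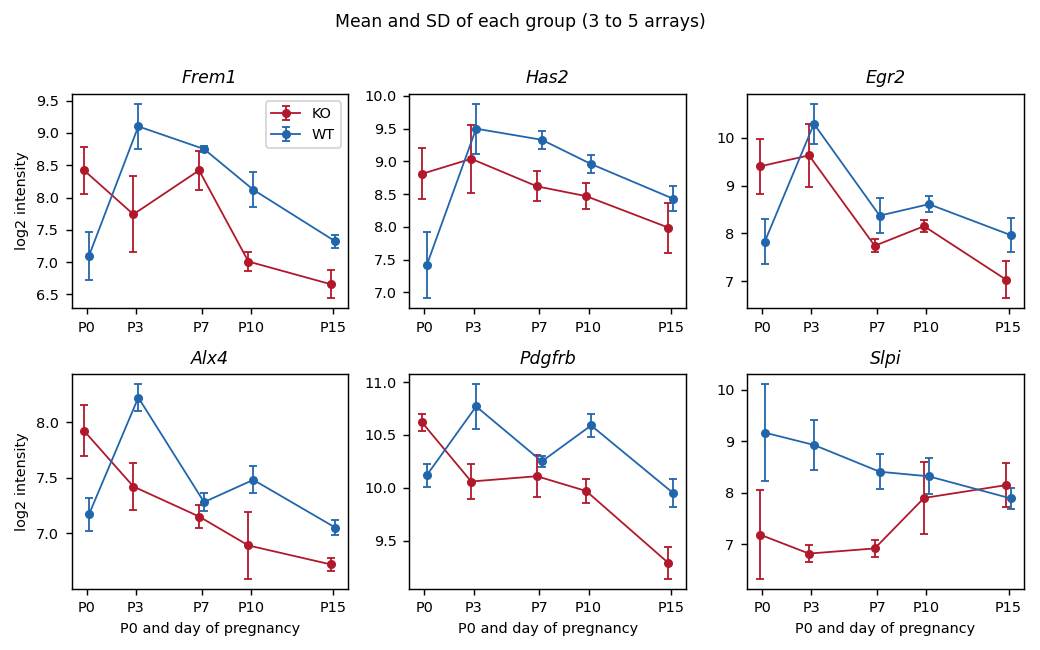
Mean and SD of log2 intensity in each group of 3 to 5 arrays, KO in red and WT in blue, from P0 to pregnancy day 15 for 6 genes. Frem1, Has2, Egr2, Alx4 and Pdgfrb are higher in KO at P0 and lower in KO at the later stages, and Slpi is lower in KO until P10.

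A targeted allele keeps neighbouring stretches of its chromosome through backcrossing, so genes next to Ptpn1 on chromosome 2 were counted apart. Of the 200 tested genes within 100 places of Ptpn1 on either side, 7 were called (3.5%), beside 1.70% of all tested genes. The 5 higher in KO were Snai1, 5 genes away (0.41), Zfp334 and Bmp7, 26 away (0.35 and 0.65), Ncoa5, 31 away (0.29), and Gdap1l1, 86 away (0.64). The 2 lower in KO were Slc12a5, 32 away (-0.29), and Slpi, 62 away (-1.99). Of the 7, Slpi and Slc12a5 were also called without WT replicate 4. Strain of origin was not measured on these arrays.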

How the data were processed

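Total RNA of mammary glands was hybridised to Affymetrix whole-transcript arrays from 100 ng of input, amplified and labelled as cDNA of the sense strand per the labels' protocols. The authors deposited 1 log2 intensity per probe set and array, 34760 probe sets on 37 arrays, spanning 2.1 to 13.71. The submitters' processing notes name affy. How background was corrected, probes summarised and arrays normalised is not given in the sources used here. Precision is limited by the number of arrays.

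Groups came from the sample titles. Probe sets with 1 gene symbol in the platform annotation (21640) gave 19937 genes, and those with more than 1 (1321) or no name here (11799) were not used. Where a gene had several probe sets (954 genes) the brightest by mean stood for it. Gene names and order come from RefSeq (GRCm38.p6), which held 19918 of the symbols. Genes had to exceed 4.96, percentile 25 of all values, in 3 or more arrays to be tested, and 3072 did not. Limma 3.58.1 in R 4.3.3 was fitted with 1 mean per group, and tests were two-sided with Benjamini-Hochberg adjustment and a threshold of 0.05. No sample was dropped or imputed in the fit reported. Tested on simulated data for KO against WT at P0 over 16865 genes, a log2 change of 1 was recovered in 96% of genes and a change of 0.5 in 73%, with 2.87% of calls false. The simulated noise was independent between genes and had the same spread in every group. In the data the median SD over genes ran from 0.099 (WT P7) to 0.169 (WT P0). These shares are therefore not error rates of the calls reported.

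The 37 gene lists held 720 entries, of which 669 were measured and 656 tested. The comparison, the lists and the members were chosen with earlier results of these data known. Named genes were Ptpn1, the 15 largest rises and 10 largest falls among called genes that did not overlap and were called without WT replicate 4 (8 such falls, filled by Hephl1 and Rasl12), up to 4 called members per list or, with none called, up to 2 as values, and the 8 smallest p-values against later stages, leaving out predicted genes. Ivl, Adamts4, Bmp7, the chromosome 2 neighbours and most members given as not called were chosen after their values were seen. The alternatives left out arrays, filters or covariates or changed the normalisation, the probe sets, the variance prior, the array weights or the block.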

Additional observations from a re-analysis of the deposited data

Results flagged for a closer look

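Of 176 sets of 4 arrays examined, the called named genes and the lists in each genotype, 13 had 1 array far from the other 3 of its group by its gap relative to the whole range, where 1 in 20 by chance would be 8.8. Among KO arrays this held for KO replicate 4 in Btc (7.87) and Ptprj (10.37), for KO replicate 1 in Sh3pxd2b (9.45), and for the KO array at 0.26 in the cornified list, 0.36 in the duct growth list, -0.02 in the chromosome 2 list, 0.37 in the hormone-sensing list and 0.01 in the endothelial list. Among WT arrays it held for WT replicate 2 in Fzd1 (9.38), Sdc1 (9.15) and fatty acid synthesis (-0.72) and for WT replicate 4 in Slc12a5 (6.35) and skeletal muscle (4.66).

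The KO minus WT difference at P0 was tested against the mean difference of the 4 later stages, and 1043 genes passed in limma. Of the named genes, those with the P0 difference higher by over 1.5 on the log2 scale were Egr2 (2.25), Frem1 (2.18), Crispld1 (2.05), Them5 (2.02), Has2 (1.92), Gcnt4 (1.85), Sprr1a (1.82), Cntn1 (1.80), Tnfaip6 (1.53) and Sprr2f (1.52), the last of which, like Epgn, entered the test through KO P0 arrays alone. Signals, receptors and transcription factors followed with Id4 (1.46), Nrg1 (1.41), Wnt2 (1.31), Pcdh18 (1.28), Egr1 (1.23), Alx4 (1.21), Pdgfrb (1.04), Socs2 (0.93), Trp63 (0.90), Snai2 (0.88), Fzd1 (0.85), Egfr (0.84), Btc (0.83), Snai1 (0.58), Inhba (0.55), Ptprj (0.51) and Epgn (0.45). Matrix, surface and enzyme genes were Elovl4 (1.45), Olfm4 (1.39), Sdc1 (1.35), Adamts18 (1.28), Tc2n (1.27), Sh3pxd2b (1.13), Mmp14 (1.01), Tgm1 (0.93) and Sectm1a (0.88). The P0 difference was lower for Hephl1 (-1.96), Cspg4 (-0.92), Dll4 (-0.63), Ppcs (-0.52), Ehbp1l1 (-0.48), Nyx (-0.46), Fam160b2 (-0.36) and Slc12a5 (-0.26).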

How the results depend on the processing

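Ptpn1 was called in all alternatives run, at -3.11 to -2.77, and no named gene changed direction in any of them. Of the 50 called genes chosen to be named, 34 kept their calls without WT replicate 4. The rule for the largest rises and falls, apart from Hephl1 and Rasl12, asked for that call, so it fixed part of the 34 beforehand. Among all 286 called genes 66 were also called without WT replicate 4. Of the 50, 29 kept their calls without WT replicate 1 and 30 without KO replicate 2. With the P0 arrays alone 1 of the 50, Tnfaip6, did so, and the adjusted p of the others was at least 0.209. The count of called genes moved from 286 (215 higher, 71 lower) to 1103 (759 higher, 344 lower) with array weights, 439 (404 higher, 35 lower) after centring, 175 (143 higher, 32 lower) after quantile normalization, 126 (104 higher, 22 lower) with the pan-epithelial covariate, 174 (128 higher, 46 lower) with the muscle covariate and 104 (79 higher, 25 lower) without the 7 arrays in doubt. All 34760 probe sets gave 45 lower. The P0 arrays alone gave 2 (1 higher, 1 lower), and those without WT replicate 4, a fit added after seeing the data, gave 1 (0 higher, 1 lower), with 1532 at an unadjusted p below 0.05. With 1 P0 array left out in turn, the count ran from 69 to 1811, of which 57 to 1180 higher and 12 to 631 lower, and the count against later stages from 477 to 2392. That count, 1043, was 2393 with array weights, 647 with the pan-epithelial covariate, 615 with the muscle covariate and 338 without the arrays in doubt. Lists with a median above 0 numbered 26 of 37, with 29 by the mean, 25 without WT replicate 4 and 30 after centring. The cause of these moves was not tested.

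The labels do not say that a shared replicate number pairs KO and WT arrays, and the P0 arrays were not treated as paired. Deviations of same-numbered arrays correlated by 0.25, 0.14, 0.17 and 0.08, all above 0, but KO replicate 1 correlated best with WT replicate 3 (0.26) and KO replicate 4 with WT replicate 2 (0.27). A fit with the replicate block gave 206 calls, 154 of them shared, with 169 higher and 37 lower, and left Ptpn1 at -2.91. Of the 50 named calls 41 held in it, and the 9 others were Dll4, Fam160b2, Rasl12, Ptpn2, Nrg1, Epgn, Btc, Lyz1 and Hoxa5, at adjusted p = 0.0527 to 0.083.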

Other observations

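Single genes outside the lists, picked after their values were seen, were also called at P0. Of the class II antigen presentation genes, Cd74, the invariant chain (0.63 ± 0.16, limma adjusted p = 0.0397), H2-Aa (0.69 ± 0.18, adjusted p = 0.0413) and H2-Ab1 (0.71 ± 0.17, adjusted p = 0.0305) rose. Cd74 read 11.44, 11.56, 11.48 and 11.4 in KO arrays, against 10.91, 10.3, 11.0 and 11.14 in WT arrays, with the groups apart and WT replicate 2 lowest. H2-Eb1 (0.17), H2-DMa (0.51), H2-Oa (-0.05), H2-Ob (0.18) and the class II regulator Ciita (0.03) were not called. With 1 P0 array left out, Cd74 and H2-Aa were each called in 2 of 8 fits and H2-Ab1 in 5.

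Of 7 genes known as readouts of ERK signalling, Etv5 and Dusp6 were called. Etv5, an ETS factor, read 7.97, 8.01, 8.35 and 8.32 in KO arrays, against 7.08, 7.83, 7.35 and 7.22 in WT arrays, with no overlap. It rose by 0.79 ± 0.15 (adjusted p = 0.00824) and kept its call with any 1 P0 array left out. Etv5 has 2 probe sets, of which the brighter was read. Dusp6, a phosphatase of ERK, rose by 0.50 ± 0.10 (adjusted p = 0.0127), called in 6 of 8 such fits and not without WT replicate 4 (0.49, adjusted p = 0.0507). Spry1 (0.20), Spry2 (0.28), Spry4 (0.22), Etv1 (0.63) and Etv4 (0.49) were not called. Beside the Notch ligand Dll4, the endothelial receptor Notch4 fell (-0.43 ± 0.11, adjusted p = 0.0338), with 4 of 8 such fits calling it, while Notch1 (0.05), Notch3 (0.04) and the target Hey1 (-0.01) were not called. Further rises that kept their calls with any 1 P0 array left out were Lce6a, a late cornified envelope gene (1.55 ± 0.26, adjusted p = 0.00165), Cdh11, a mesenchymal cadherin (0.87 ± 0.17, adjusted p = 0.00891), Chst2, a sulfotransferase (0.81 ± 0.12, adjusted p = 6.58e-04), Hif1a, the hypoxia factor (0.49 ± 0.09, adjusted p = 0.00752), and Gclc, of glutathione synthesis (0.36 ± 0.06, adjusted p = 0.00196). The groups overlapped for Lce6a, with KO replicate 4 (5.71) below WT replicate 2 (6.26). They also overlapped for Cdh11, with KO replicate 4 (10.21) below WT replicate 3 (10.23). For Lce6a limma on the P0 arrays alone gave an SE of 0.45 (adjusted p = 0.317).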
